A study of Mus musculus with 23 samples.

Results

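The transcription factor genes Hnf4a, Hnf4g, Foxa1, Foxa2, Foxa3, Gata4, Gata6 and Cdx2, which pattern the gut and pancreas, were followed through 23 RNA-seq libraries of mouse tumour co-cultures. They were chosen by name, with earlier results of these data known, and all 8 were found among the 35523 genes of the tables. The cultures combined pancreatic stellate cells (PSCs), the resident mesenchymal cells of the pancreas that can turn into fibroblasts, with pancreatic tumour organoids, which are tumour cells grown as small structures in a gel. After 3.5 days together in Matrigel, in medium labelled reduced/control, the cells were separated by flow sorting into a PSC fraction (12 libraries) and an organoid fraction (11 libraries). The PSCs were Egfr wild type (WT, named Rosa in the titles) or Egfr knockout (KO), so the genotype of an organoid library is that of the PSCs beside it. Egfr is the gene of a growth factor receptor, a tyrosine kinase at the cell surface.

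The organoid lines were T69A, T6-LOH and T12-LOH, and the PSC parents were PSC4, with KO clones A3 and B4, and PSC5, with KO clones C5 and D4. T69A, T6-LOH and T12-LOH were each grown with PSC4, and T6-LOH also with PSC5. This gave 4 co-cultures with 1 WT organoid library each and 7 KO organoid libraries, since T69A with PSC4 clone A3 has a PSC library only. The PSC libraries comprised 4 WT and 8 KO. The labels give no strain, animal, tumour allele or age, and they do not say whether libraries of 1 composition came from separate cultures. P-values therefore measure the spread between these libraries, of which each PSC clone and each organoid line is a single isolate.

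HNF4, FOXA, GATA and CDX proteins bind DNA in regulatory regions and together set the identity of tissues that arise from the endoderm. Foxa factors can open compact chromatin, Hnf4a and Hnf4g are nuclear receptors that drive intestinal and hepatic metabolic genes, Gata4 and Gata6 act in stomach, intestine and pancreas, and Cdx2 is the defining factor of the intestine. In pancreatic tumours, GATA6 and HNF4A are known markers of the classical, more differentiated programme. Gata4 and Gata6 are also known in mesenchyme, which bears on their levels in PSCs.

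The labels of the fractions were checked against marker genes. All 18 epithelial markers averaged at least 1 CPM (library-size normalised counts, scaled by TMM) in the organoid fraction, as did 9 in WT and 9 in KO PSCs. Their summed level was 15360 to 21030 CPM in organoids against 24.7 to 164.5 CPM in PSCs. The 20 fibroblast markers summed to 13880 to 31610 CPM in PSCs and to 13.0 to 535.7 CPM in organoids. Of these 20, 7 averaged at least 1 CPM in WT and 5 in KO organoids. Egfr in the PSC fraction was 278 to 419.5 CPM in the 4 WT libraries and 57.3 to 345 CPM in the 8 KO libraries, so the groups overlapped in 1 KO library, PSC5 clone D4. The edgeR difference was -1.15 ± 0.34 on the log2 scale (SE) with an adjusted p of 0.225. The position of the deletion is not given in the labels, so the transcript level does not by itself check the knockout.

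Promoter sequences are shown for the genes whose start sites or contrasting levels the results turn on. They come from RefSeq (build GRCm38.p6, mouse), give up to 250 bases before each start site 5′ to 3′, and carry matched motif letters in capitals. This build is not that of the deposited tables, so the coordinates serve these sequences only, and the windows of Hnf4a P2 (211 bases) and Cdx2 (239 bases) end short of the start site. RefSeq entries were matched by symbol for 5 of the 8 genes, 8 entries in all. Hnf4a has a pair of entries, an upstream one known as P2 and a downstream one known as P1, which lead to proteins with different amino termini. Capitals mark AGATAA in P2, one of the letter strings searched for GATA factors, and ATTAAC in P1, the reverse complement of the HNF1 half-site GTTAAT. In Foxa1 and Cdx2 they mark GTAAACA, the reverse complement of the FOXA motif TGTTTAC, and in Cdx2 also GTTAAT.
Hnf4a P2, chr2:163506607-163506817, plus strand: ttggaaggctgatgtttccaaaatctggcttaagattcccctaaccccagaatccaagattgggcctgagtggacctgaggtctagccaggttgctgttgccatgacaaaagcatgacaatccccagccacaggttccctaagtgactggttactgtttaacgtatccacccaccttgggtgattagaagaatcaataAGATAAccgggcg
Hnf4a P1, chr2:163546905-163547154, plus strand: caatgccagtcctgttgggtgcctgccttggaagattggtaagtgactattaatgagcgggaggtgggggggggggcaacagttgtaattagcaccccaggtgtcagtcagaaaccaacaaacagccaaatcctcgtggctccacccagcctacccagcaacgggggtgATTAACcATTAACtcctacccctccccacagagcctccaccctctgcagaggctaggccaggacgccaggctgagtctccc
Foxa1, chr12:57546112-57546361, minus strand: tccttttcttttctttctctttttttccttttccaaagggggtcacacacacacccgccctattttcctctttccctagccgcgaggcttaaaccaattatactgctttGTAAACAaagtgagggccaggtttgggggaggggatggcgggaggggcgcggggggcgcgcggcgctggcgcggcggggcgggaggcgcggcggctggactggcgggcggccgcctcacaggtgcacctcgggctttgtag
Foxa2, chr2:148045949-148046198, minus strand: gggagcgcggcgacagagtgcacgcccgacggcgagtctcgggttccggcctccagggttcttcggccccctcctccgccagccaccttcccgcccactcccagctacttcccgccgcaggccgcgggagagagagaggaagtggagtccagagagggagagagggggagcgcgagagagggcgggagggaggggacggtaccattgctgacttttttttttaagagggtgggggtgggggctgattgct
Cdx2, chr5:147307261-147307499, minus strand: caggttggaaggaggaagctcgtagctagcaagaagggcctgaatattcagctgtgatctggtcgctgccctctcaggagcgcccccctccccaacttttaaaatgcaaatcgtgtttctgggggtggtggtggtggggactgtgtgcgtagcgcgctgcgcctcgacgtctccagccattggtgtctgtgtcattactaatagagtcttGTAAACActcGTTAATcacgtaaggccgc

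Motifs were searched on both strands in windows from 250 bases before to 50 bases after each start, and the letters of the HNF1 half-site were chosen after these sequences had been seen. The GATA letters (AGATAA and the variant TGATAA) were present in 18.6% of 32851 such windows, the FOXA letters (TGTTTAC and the variants TATTTAC and also TGTTTGC and the last, TATTTGC) in 13.5%, and GTTAAT in 7.10%. In P2 the AGATAA match lay 52 to 47 bases before the RefSeq start. The GENCODE start of transcript Hnf4a-205, used below for P2, lies upstream of the RefSeq start and within this match. In P1 the adjacent ATTAAC matches lay 81 to 76 and 74 to 69 bases before it, with no overlap. The GTAAACA match stood 141 to 135 bases before the start of Foxa1 and 40 to 34 before that of Cdx2, where GTTAAT followed at 30 to 25. The Foxa2 entry shown, which starts where the transcript holding most Foxa2 reads starts, had no match to the letters searched. Another Foxa2 entry, which is not shown, held AGATAA at 183 to 178 and ATTAAC at 176 to 171 bases before its start, and a TATAAA match on the other strand. A match is a description of the letters and does not show binding.

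The first question was how the factors are composed in each organoid line, which can be compared between genes only per transcript length, as TPM, the length-scaled unit of the deposited tables. Hnf4a was the highest of the 8 in every line, with means of 107 ± 12.2 TPM in T6-LOH (SD, n = 6), 141 ± 17.2 in T12-LOH (n = 3) and 150 ± 28.2 in T69A (n = 2). In T6-LOH the order went on with Foxa1 at 79.7 ± 5.25 TPM, Cdx2 at 34.6 ± 7.83 and Gata4 at 23.5 ± 2.18, the last pair overlapping in range. Foxa3 (6.86 ± 1.77), Hnf4g (6.59 ± 0.92) and Foxa2 (5.33 ± 1.15) followed with overlapping ranges, and Gata6 stood last at 0.257 ± 0.134 TPM.

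In T12-LOH and T69A, Gata4 stood next after Hnf4a at 57.6 ± 7.34 and 43.1 ± 6.75 TPM. In T12-LOH, Foxa1 (37.3 ± 2.58 TPM) was followed by Foxa2 (32.4 ± 1.01) and Cdx2 (31.4 ± 3.07), and the ranges of the latter pair overlapped. In T69A, Foxa2 (35.5 ± 1.124 TPM) and Cdx2 (32.2 ± 8.23) overlapped and both stood above Foxa1 (22.8 ± 1.16). Gata6 reached 8.67 ± 0.75 TPM in T12-LOH and 16.3 ± 0.99 in T69A, and Hnf4g was the lowest of the 8 in both lines, at 5.04 ± 0.94 and 4.02 ± 1.00.

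The lines were then compared with each other in an edgeR quasi-likelihood fit of the 11 organoid libraries, with the 4 co-cultures and PSC genotype as terms and adjustment over 14750 genes. Between T12-LOH and T6-LOH, both grown with PSC4, all 8 factors passed an adjusted p of 0.05, where 62.1% of all genes did. Between T69A and T6-LOH 7 of 8 passed, where 52.9% of all genes did, and between T12-LOH and T69A 4 of 8 passed, where 55.8% did. The lines are single isolates, so these differences describe the lines. The 2 T6-LOH co-cultures, with PSC4 and PSC5, gave a measure of the spread within a line: 0 of 8 factors passed, with 0.502% of all genes called. In edgeR 3 of the 8 had an unadjusted p under 0.05, and DESeq2 called 1, Foxa2.

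**Figure D1:**
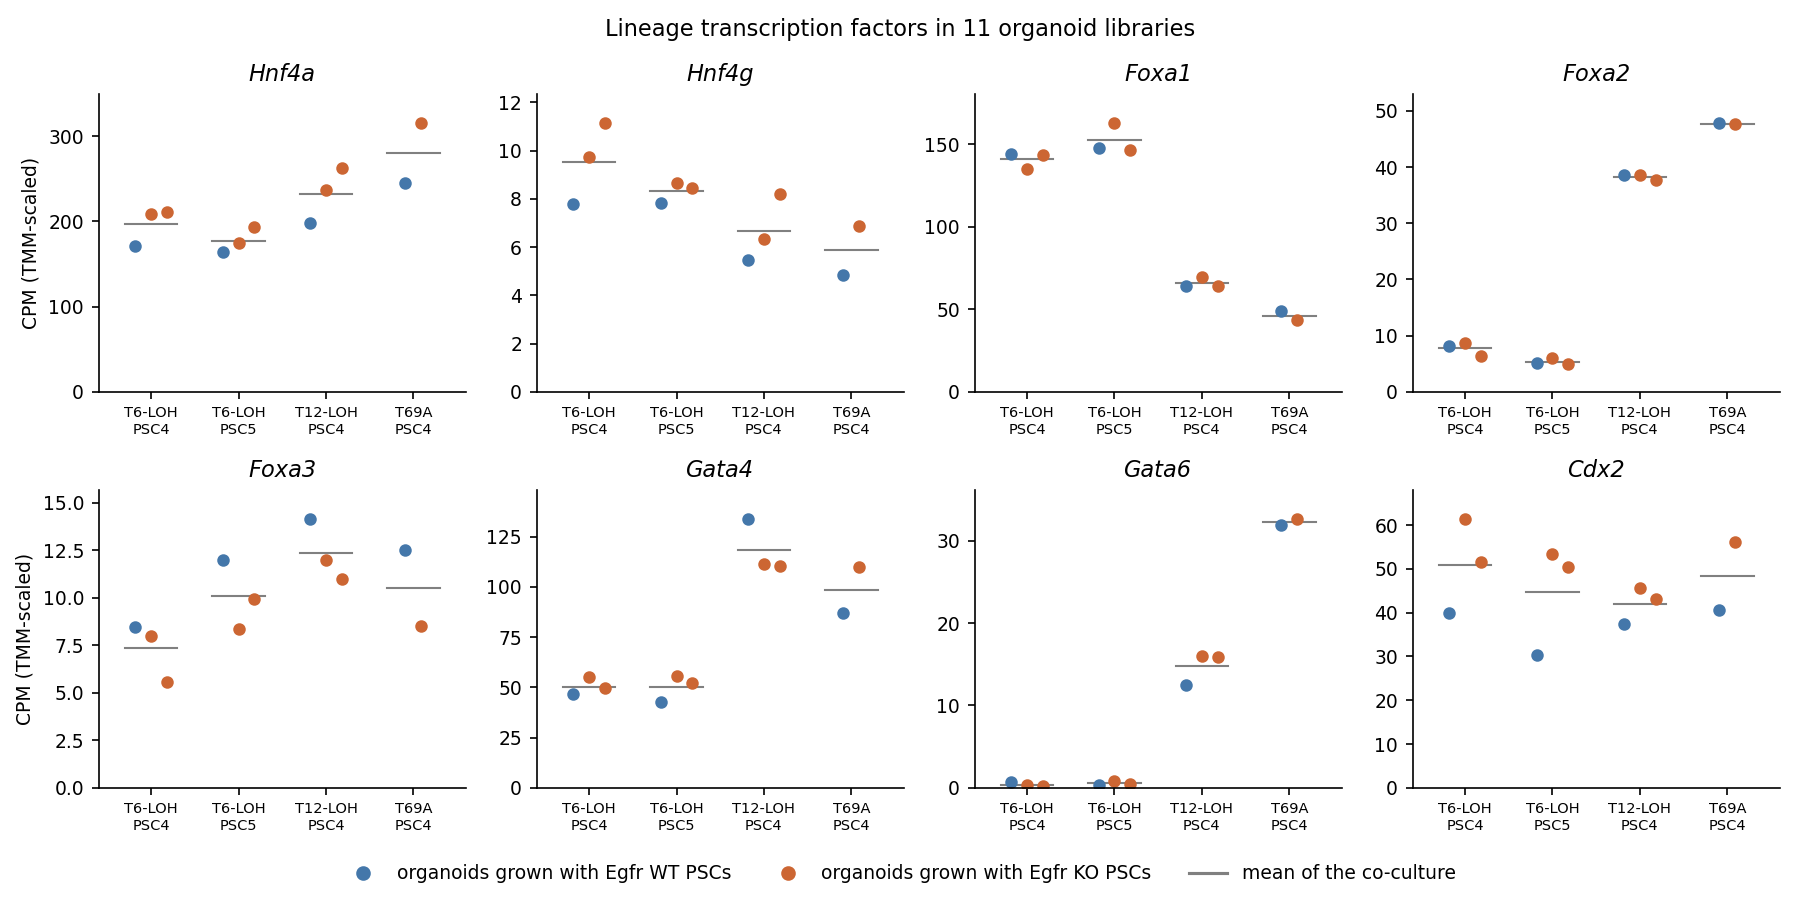
Level of each of the 8 factors (CPM, linear axis from 0) in the 11 organoid libraries, by co-culture; each point is 1 library, coloured by the Egfr genotype of the PSCs it was grown with, and each line is the mean of a co-culture. Gata6 and Foxa2 are low in both T6-LOH co-cultures, Foxa1 is highest there, and Cdx2 and Hnf4a points with KO PSCs lie above the WT point of their co-culture.

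Foxa1 and Foxa2, closely related forkhead factors, stood in opposite order across the lines. Foxa1 was 143.9, 135.2 and 143.8 CPM in T6-LOH with PSC4 (WT, A3 and B4) and 148, 163 and 147 CPM with PSC5 (WT, C5 and D4). It was 64.3, 69.5 and 64.1 CPM in T12-LOH and 48.9 and 43.3 CPM in T69A (WT and B4). No T6-LOH library overlapped a library of another line. Foxa1 differed from T6-LOH by -1.09 ± 0.07 (log2 difference, SE; adjusted p = 2.88e-08) in T12-LOH and by -1.61 ± 0.08 (adjusted p = 1.20e-08) in T69A. T12-LOH stood above T69A by 0.52 ± 0.08 (adjusted p = 0.00011).

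Foxa2 was 8.16, 8.71 and 6.43 CPM in T6-LOH with PSC4 and 5.09, 5.97 and 5.03 CPM with PSC5. In T12-LOH it was 38.6, 38.5 and 37.6 CPM, and in T69A 47.8 and 47.7 CPM. The lines were separated with no overlap, T6-LOH lowest. Foxa2 was higher than in T6-LOH by 2.30 ± 0.11 (log2, adjusted p = 2.76e-09) in T12-LOH and by 2.62 ± 0.12 (adjusted p = 4.08e-09) in T69A. Its difference between T12-LOH and T69A, -0.32 ± 0.11 (adjusted p = 0.0246), did not pass without any 1 of the 5 T12-LOH and T69A libraries (adjusted p 0.007 to 0.133 over the 11 omissions). It was also lost with an effective length offset and with the organoid line in 3 levels (adjusted p up to 0.196).

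The ratio of Foxa1 to Foxa2 in TPM was 10.5 to 19.5 in the 6 T6-LOH libraries, 1.10 to 1.24 in T12-LOH and 0.605 to 0.68 in T69A. The sum of Foxa1, Foxa2 and Foxa3 was 86.3 to 99.2 TPM in T6-LOH, 75.3 to 82.4 in T12-LOH and 64.6 to 67.3 in T69A, with no overlap between lines. Foxa1 supplied most of it in T6-LOH, and Foxa2 more than Foxa1 in T69A. Within T6-LOH, Foxa2 was lower with PSC5 than with PSC4 by -0.53 ± 0.12 (log2), which missed the threshold (adjusted p = 0.0615). Among omissions of 1 library it passed without T6-LOH PSC4 B4 (0.0348), and it passed with DESeq2 (0.00739) and with no filter on low counts (0.0151).

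Foxa3, known for its role in liver glucose metabolism, varied less. It was 8.46, 7.97 and 5.58 CPM in T6-LOH with PSC4, 12.0, 8.34 and 9.95 CPM with PSC5, 14.1, 12.0 and 11.0 CPM in T12-LOH and 12.5 and 8.502 CPM in T69A. T12-LOH and T69A libraries lay above T6-LOH with PSC4, T69A only narrowly, and overlapped T6-LOH with PSC5. T12-LOH exceeded T6-LOH, both with PSC4, by 0.75 ± 0.13 (log2, adjusted p = 0.000286). T69A stood 0.44 ± 0.15 above T6-LOH (adjusted p = 0.0254), a call lost without the T69A WT, T6-LOH PSC4 WT or T6-LOH PSC4 B4 library (adjusted p 0.00534 to 0.2 over the 11 omissions). It was also lost when both T6-LOH co-cultures were fitted as 1 line (0.19, adjusted p = 0.41).

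Gata6 showed the largest differences of the 8 genes between T6-LOH and the other lines. In T6-LOH it was 0.695, 0.282 and 0.177 CPM with PSC4 and 0.373, 0.837 and 0.482 CPM with PSC5. In T12-LOH it was 12.4, 16.0 and 15.9 CPM, and in T69A 31.9 and 32.6 CPM. The 3 lines did not overlap. Gata6 was higher than in T6-LOH by 5.19 ± 0.33 (log2, adjusted p = 4.77e-07) in T12-LOH, 36.5-fold, and by 6.33 ± 0.34 (adjusted p = 3.33e-07) in T69A, 80.7-fold. T12-LOH stood below T69A by -1.14 ± 0.25 (adjusted p = 0.00317), which rests on the T69A B4 library (adjusted p = 0.0535 without it).

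The low T6-LOH values were read against the PSC fraction, where Gata6 was high. Gata6 in T6-LOH organoids amounted to 0.41 to 3.48% of its level in the PSCs of the same composition, while fibroblast markers of at least 50 CPM in PSCs stood at a median of 0.0072 to 0.0523% there. The highest marker reached 1.18% in T6-LOH PSC4 B4, where Gata6 was 0.41%, and 1.13% in T6-LOH PSC5 WT, where Gata6 was 1.07%. Over all lines, Gata6 stood above every fibroblast marker in 9 of 11 organoid libraries. How much of the T6-LOH Gata6 signal came from PSC RNA was not tested.

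Gata4, its relative, was 46.6, 55.0 and 49.6 CPM in T6-LOH with PSC4 and 42.6, 55.7 and 52.3 CPM with PSC5. It was 134, 112 and 110.4 CPM in T12-LOH and 87.2 and 110.0 CPM in T69A. T6-LOH lay below both other lines without overlap, and those overlapped each other. The differences from T6-LOH were 1.24 ± 0.12 (log2, adjusted p = 5.22e-06) for T12-LOH and 0.99 ± 0.13 (adjusted p = 9.69e-05) for T69A. Gata4 made up 98.3 to 99.6% of the Gata4 and Gata6 total in TPM in T6-LOH, 85.4 to 89.4% in T12-LOH and 71.1 to 73.8% in T69A.

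The HNF4 pair and Cdx2 differed less. Hnf4a was 171, 209 and 211 CPM in T6-LOH with PSC4, 164, 175 and 193 CPM with PSC5, 198, 237 and 263 CPM in T12-LOH and 245 and 315 CPM in T69A. Values of T6-LOH and T12-LOH overlapped, and T69A stood above T6-LOH. Against T6-LOH the differences were 0.24 ± 0.06 (log2, adjusted p = 0.00554) for T12-LOH and 0.55 ± 0.07 (adjusted p = 3.41e-05) for T69A. T12-LOH stood -0.31 ± 0.07 from T69A (adjusted p = 0.00234, and 0.0506 without the T69A B4 library).

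Hnf4g, an intestinal relative of Hnf4a, was 7.77, 9.73 and 11.1 CPM in T6-LOH with PSC4 and 7.84, 8.65 and 8.44 CPM with PSC5. In T12-LOH it was 5.46, 6.32 and 8.19 CPM and in T69A 4.85 and 6.88 CPM, so that the T12-LOH B4 library overlapped T6-LOH. It differed from T6-LOH by -0.52 ± 0.13 (log2, adjusted p = 0.00409) in T12-LOH and by -0.65 ± 0.15 (adjusted p = 0.00341) in T69A. The ratio of Hnf4a to Hnf4g in TPM was 14.7 to 18.1 in T6-LOH, 26.2 to 29.2 in T12-LOH and 35.9 to 39.2 in T69A.

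Cdx2 was 39.9, 61.3 and 51.6 CPM in T6-LOH with PSC4, 30.4, 53.4 and 50.5 CPM with PSC5, 37.3, 45.7 and 43.1 CPM in T12-LOH and 40.6 and 56.0 CPM in T69A. All lines overlapped. T12-LOH stood -0.26 ± 0.10 from T6-LOH (log2, adjusted p = 0.0331), a call lost without any 1 of 5 libraries (adjusted p up to 0.151): both T12-LOH KO, the T69A WT, and the WT and A3 libraries of T6-LOH with PSC4. With all libraries kept, the call held in only 4 of 5 alternative settings (-0.281 to -0.164, adjusted p up to 0.167). T69A and T6-LOH differed by 0.01 ± 0.11 (adjusted p = 0.968).

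For the upstream promoter of Hnf4a, the estimated reads of 1 annotated transcript were taken, Hnf4a-205, whose annotated start lies within the P2 sequence shown above. Estimated reads are divided between transcripts by a model, so read starts were not counted. This transcript of 431 bases held 3.72 to 4.99% of the Hnf4a reads in every organoid library, with overlapping ranges in the 3 lines. The transcript is an incomplete annotation, so its share is not the share of P2 use. Foxa2-202 held 85.8 to 100% of Foxa2 reads in organoids, Foxa1-201 held 99.8 to 100% of Foxa1 reads, and Cdx2 and Foxa3 have a single transcript in the tables. Annotated genes on the opposite strand overlap Hnf4a (Hnf4aos) and Gata6 and are not in the tables. Without a stated strand setting, their reads cannot be told apart from those of Hnf4a and Gata6.

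Genes that partner the 8 factors or mark the tissues they pattern were taken from lists, chosen like the members with earlier results known. Of 20 partner transcription factors tested, 4 were higher and 11 lower in T12-LOH than in T6-LOH, where 62.1% of all genes were called. Their median difference was -0.39 against 0.01 (log2) over all genes. Nr5a2, an orphan nuclear receptor of pancreas and liver, differed by -5.36 ± 0.48 (adjusted p = 7.57e-07), from 3.24 ± 0.89 CPM in T6-LOH to 0.079 ± 0.069 in T12-LOH. Isx, an intestinal homeobox gene, was 26.2 ± 6.10 CPM in T6-LOH, 3.90 ± 1.22 in T12-LOH (-2.74 ± 0.14, adjusted p = 4.68e-09) and 1.96 ± 1.04 in T69A (-3.63 ± 0.18, adjusted p = 1.17e-08). In T69A against T6-LOH 4 partner factors were higher and 8 lower, with a median of 0.07, where 52.9% of all genes were called. Pdx1, the pancreas and duodenum homeobox factor, was 46.2 ± 5.98 CPM in T6-LOH, 39.9 ± 4.72 in T12-LOH and 59.5 ± 3.43 in T69A, the last higher by 0.52 ± 0.09 (adjusted p = 0.000248).

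Of the intestinal genes known as Cdx2 targets or markers, most were lower in T12-LOH. Of 14 tested, 0 were higher and 10 lower than in T6-LOH, where 62.1% of all genes were called in either direction. The list median was -0.995 against 0.01 over all genes. Vil1, the brush border protein villin, was 389 ± 14.2 CPM in T6-LOH and 211 ± 10.9 in T12-LOH (-0.92 ± 0.06, adjusted p = 4.55e-08). Gpa33, an intestinal surface antigen, was 322 ± 49.3 and 146 ± 16.5 CPM (-1.07 ± 0.09, adjusted p = 4.21e-07). In T69A against T6-LOH the list split into 6 higher and 5 lower, with a median of -0.06, where 52.9% of all genes were called. Lgals4, a gut galectin, was 2538 ± 350 CPM in T69A and 1038 ± 109 in T6-LOH (1.20 ± 0.09, adjusted p = 4.13e-07), while the copper oxidase gene Heph was 3.20 ± 0.74 and 29.2 ± 2.11 CPM (-3.20 ± 0.19, adjusted p = 1.37e-07).

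Gastric genes were mostly higher in T69A, where 12 of 16 tested were higher and 1 lower than in T6-LOH. Their median was 1.34 against 0.01 over all genes, of which 52.9% were called in either direction. Gkn1, a gastric secreted protein, was 38.6 ± 4.31 CPM in T69A, 19.1 ± 8.20 in T12-LOH and 2.50 ± 0.53 in T6-LOH. Its differences from T6-LOH were 3.79 ± 0.19 (adjusted p = 2.99e-08) in T69A and 2.81 ± 0.18 (adjusted p = 7.42e-08) in T12-LOH. Muc5ac, the mucin of the stomach surface, was 110 ± 15.2, 129 ± 28.1 and 17.3 ± 3.96 CPM in the same order. T12-LOH had 7 higher and 5 lower gastric genes against T6-LOH, with a median of 0.16, where 62.1% of all genes were called. Among those lower was Cldn18, a tight junction gene of stomach and lung, at 3.86 ± 0.34 CPM against 345 ± 22.9 in T6-LOH and 769 ± 88.5 in T69A (T12-LOH minus T6-LOH -6.43 ± 0.10, adjusted p = 5.26e-13).

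Genes of the classical tumour programme were counted next, with Gata6 itself not in the list. For these and the following lists, the share of all genes called was 62.1% in T12-LOH and 52.9% in T69A, each against T6-LOH. In T12-LOH 3 of 17 tested were higher than in T6-LOH and 10 lower (median -0.50), and in T69A 8 were higher and 5 lower (median 0.45). Of 11 basal programme genes, 3 were higher and 5 lower in T12-LOH, and 3 higher and 1 lower in T69A. HNF4 target genes of intestine and liver gave 4 higher and 5 lower of 11 in T12-LOH, and 5 higher and 2 lower in T69A. Apob, the apolipoprotein of lipid export, was 2448 ± 393 CPM in T69A, 270 ± 40.4 in T6-LOH and 93.6 ± 25.3 in T12-LOH. Its difference from T6-LOH was 3.17 ± 0.26 (adjusted p = 5.64e-05) in T69A and -1.51 ± 0.24 (adjusted p = 0.00107) in T12-LOH. Fibroblast markers also differed between lines, with 6 of 13 tested higher in T12-LOH and 8 of 13 in T69A than in T6-LOH and 0 lower in either. The median PSC marker share was 0.0467 to 0.0871% in T12-LOH and 0.054 to 0.196% in T69A.

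**Figure D2:**
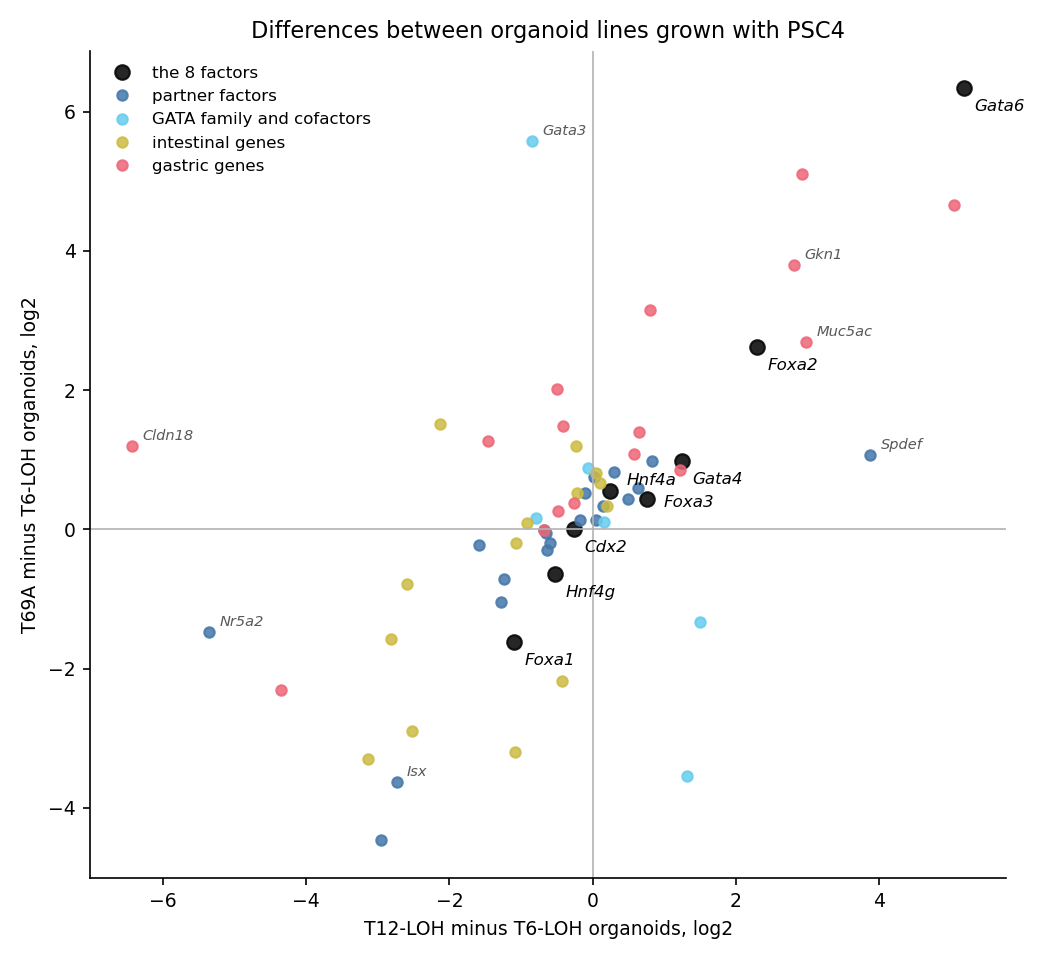
Log2 difference of T12-LOH (x axis) and T69A (y axis) from T6-LOH organoids, all grown with PSC4 and sharing the T6-LOH libraries, for the 8 factors and the listed partner, GATA family, intestinal and gastric genes; each point is 1 gene, with no error bars. Gata6 lies at 5.19 and 6.33, Foxa2 at 2.30 and 2.62 and Foxa1 at -1.09 and -1.61, while Cdx2 and Hnf4a lie near the origin and Cldn18 at -6.43 and 1.20.

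The genes most like each factor across the 11 organoid libraries were named by Pearson's r of log2(CPM + 0.5) among 10280 protein-coding genes of at least 5 CPM. These values are descriptions, since libraries share lines and the difference between lines dominates them. For Foxa1 they were Whrn (r = 0.994), Agfg1 (0.994) and Smarca2 (0.992). Foxa2 was closest to Acat1 (0.991), Mtus2 (0.988) and Tnks1bp1 (0.987), and Gata6 to Uaca (0.993), Ccng1 (0.993) and Rnf141 (0.992). Gata4 was closest to Rpl23 (0.985), Dhx40 (0.985) and Cltb (0.984), and Hnf4a to Golph3l (0.971), Gna11 (0.958) and Meis2 (0.956). The highest values were lower for Hnf4g (Frk 0.957, Reep4 0.933, Sri 0.925), Foxa3 (Ern1 0.913, Prss16 0.911, Cbarp 0.908) and Cdx2 (Slc30a5 0.906, Odc1 0.905, Flvcr1 0.901). As an example, Smarca2, a chromatin remodelling ATPase, was 70.1 CPM in T6-LOH, 19.4 in T12-LOH and 12.3 in T69A on average.

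The second question was whether the Egfr genotype of the neighbouring PSCs went with the level of the factors in organoids. Cdx2 and Hnf4a were higher in organoids grown with KO PSCs, Foxa3 was lower, and the other 5 did not pass. That is 3 of 8 factors called, and across all genes 9.16% were called, 3.82% higher and 5.34% lower, with 563 and 788 genes.

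Cdx2 in WT against KO organoids was 39.9 against 61.3 and 51.6 CPM in T6-LOH with PSC4, 30.4 against 53.4 and 50.5 CPM in T6-LOH with PSC5, 37.3 against 45.7 and 43.1 CPM in T12-LOH, and 40.6 against 56.0 CPM in T69A. All 7 KO libraries exceeded the WT library of their co-culture and, taken over all lines, every WT value lay below every KO value. The difference was 0.49 ± 0.08 (log2, adjusted p = 0.00522), a fold of 1.41, and leaving out any 1 library gave 0.40 to 0.58 (adjusted p 0.0031 to 0.0237).

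Hnf4a was 171 against 209 and 211 CPM in T6-LOH with PSC4, 164 against 175 and 193 CPM with PSC5, 198 against 237 and 263 CPM in T12-LOH and 245 against 315 CPM in T69A. Each of the 7 KO libraries again exceeded its WT library, but the groups overlapped across lines. The difference was 0.28 ± 0.05 (log2, adjusted p = 0.0086), a fold of 1.21, and it passed with any 1 library left out (0.26 to 0.32, adjusted p 0.0071 to 0.0385). Hnf4g was above its WT library in 7 of 7 KO libraries too, by 0.10 to 0.54 (log2), and its estimate of 0.34 ± 0.10 missed the threshold (adjusted p = 0.0575).

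Foxa3 was below its WT library in 7 of 7 KO libraries, by -0.56 to -0.08 (log2). The estimate was -0.38 ± 0.10 (adjusted p = 0.0367). The call was lost in 9 of 11 omissions of 1 library, with adjusted p 0.0238 to 0.13, and held without T6-LOH PSC4 A3 and without T6-LOH PSC4 B4. It was also lost with an effective length offset (0.0656), without the co-culture block (0.119) and without the T69A co-culture (0.12). Foxa1 (-0.02 ± 0.05, adjusted p = 0.867) and Foxa2 (-0.02 ± 0.08, adjusted p = 0.918) gave estimates near 0. Both had KO libraries on either side of their WT library, 2 above and 5 below in each case.

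Gata4 and Gata6 did not move in one direction. Gata4 was above its WT library in 5 of 7 KO libraries and below in both T12-LOH libraries (134 WT, 112 and 110.4 CPM KO), with an estimate of 0.11 ± 0.09 (adjusted p = 0.443). Without the T12-LOH WT library the estimate was 0.27 and passed (adjusted p = 0.0207). Gata6 gave 0.09 ± 0.23 (adjusted p = 0.846), with KO libraries from -0.82 to 0.61 (log2) from their WT and the extremes in T6-LOH, where it was under 1 CPM.

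Whether the genotype difference itself differed between T12-LOH and T6-LOH was tested by an interaction, with 3 residual degrees of freedom. It gave -0.44 ± 0.12 (log2, adjusted p = 0.296) for Gata4 and 1.94 ± 0.45 (adjusted p = 0.224) for Gata6. Neither passed, nor did the other 6, where 0.0196% of all genes were called. Of the 8, 2 had an unadjusted p under 0.05 (Gata4 and Gata6), DESeq2 gave 0 calls, and without a filter on low counts both passed (adjusted p 0.0413 and 0.0114).

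**Figure D3:**
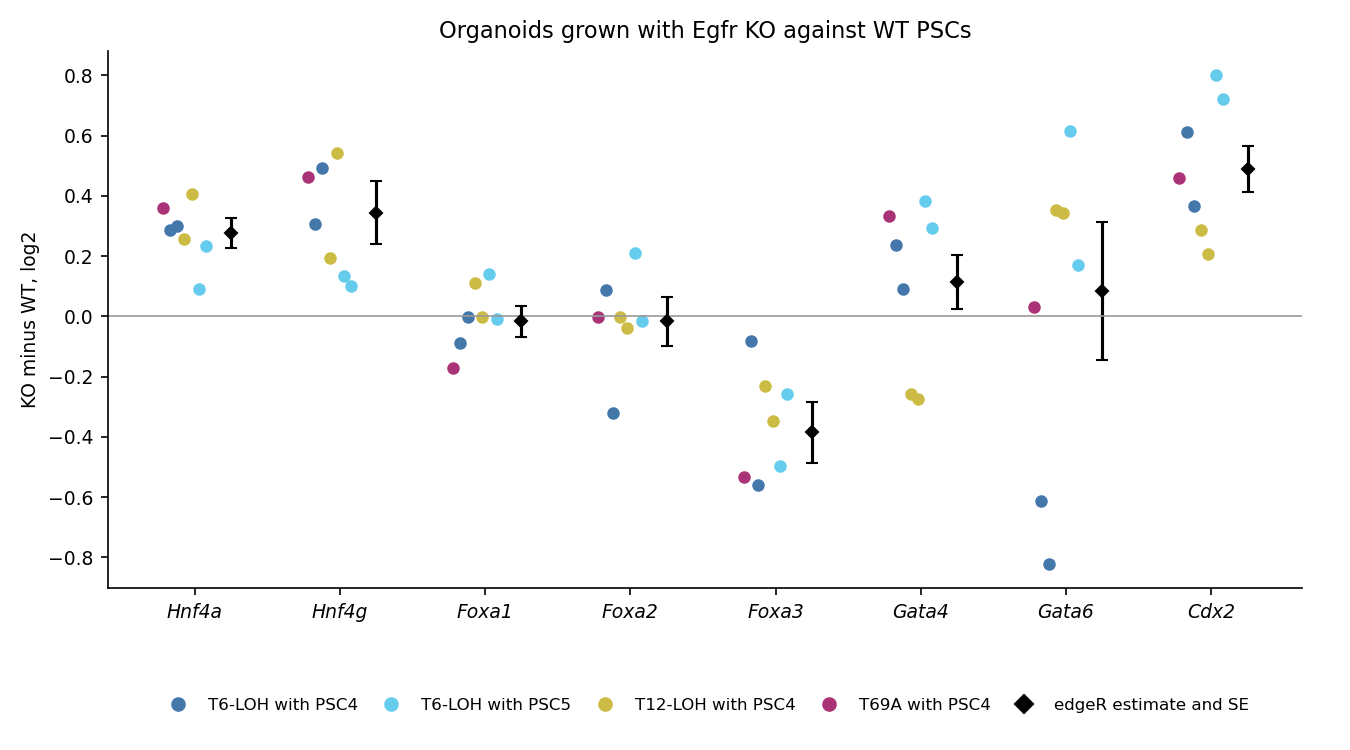
Log2 difference in each of the 7 KO organoid libraries from the WT library of its co-culture (circles, log2 of CPM + 0.5) for the 8 factors, with the edgeR estimate and its SE as a diamond and bar. All circles lie above 0 for Hnf4a, Hnf4g and Cdx2 and below 0 for Foxa3, and those of Gata4 and Gata6 lie on both sides.

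Genes of the lists were counted for PSC genotype in the same way, against the 9.16% of all genes called. Of 20 partner factors 2 rose, Isx by 0.71 ± 0.11 (log2, adjusted p = 0.00424) and Pdx1 by 0.21 ± 0.06 (adjusted p = 0.0463), and 0 fell. Isx is an intestinal gene known as a Cdx2 target. Among 14 intestinal genes 1 rose, Tspan8 (0.18 ± 0.05, adjusted p = 0.0483), and 1 fell, Gpa33 (-0.27 ± 0.07, adjusted p = 0.0287), with a list median of 0.12 against -0.01 over all genes. Cdh17, a liver-intestine cadherin known as a Cdx2 target, was 693 ± 39.8 CPM in WT and 802 ± 108 in KO (0.22 ± 0.07, adjusted p = 0.0539). Among 11 HNF4 target genes 1 rose, Cyp2c65, a gut cytochrome P450 (0.84 ± 0.15, adjusted p = 0.0114), and 0 fell, with a median of 0.17. Among 16 gastric genes 0 rose and 1 fell, Gkn1 (-0.57 ± 0.13, adjusted p = 0.0234).

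Markers of other cells moved with the genotype as well. Of 13 fibroblast markers tested in organoids, 0 rose and 5 fell with KO PSCs (Col1a1, Col3a1, Dcn, Vim and Sparc), with a median of -1.04. Their 20-gene sum was 50.4 to 535.7 CPM in WT and 13.0 to 435 CPM in KO organoids. The median PSC marker share was 0.0357 to 0.196% in WT and 0.0072 to 0.0871% in KO organoids. Of 7 immune and endothelial markers 1 fell, Cd68, and the 16-gene sum was 24.2 to 32.7 CPM in WT and 14.6 to 23.1 CPM in KO. The part of these shares in the differences of Cdx2, Hnf4a and Foxa3 was not tested. In PSCs, Cdx2 and Hnf4a were at most 0.52 and 1.52 CPM.

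The third question was whether the factors are absent from PSCs. Gata6 and Gata4 were present at 3.21 CPM or more in every PSC library, and the other 6 at 1.52 CPM or less. Comparing 22 libraries of 11 matched compositions, with composition as a block and 10 residual degrees of freedom, 7 factors were higher in organoids and Gata6 was lower, where 37.6% of all genes were called higher and 36.3% lower. The log2 differences were 9.25 ± 0.39 for Hnf4a (adjusted p = 2.00e-10), 8.75 ± 0.46 for Cdx2 (1.57e-09), 8.49 ± 0.63 for Hnf4g (4.38e-08), 7.76 ± 0.37 for Foxa2 (6.28e-10), 7.40 ± 0.31 for Foxa1 (2.03e-10) and 6.82 ± 0.45 for Foxa3 (1.42e-08). The Hnf4g value was 9.28 with DESeq2. It was 9.92 without the PSC library of T69A with clone B4, which had the highest Hnf4g level of the PSC libraries, or without the organoid library of that composition. In bulk RNA, fewer cells of a type and less RNA per cell cannot be told apart.

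Hnf4g had 0 reads in 9 of 12 PSC libraries, and 3 reads, the limit that a count of 0 allows, would be 0.0859 to 0.132 CPM there. Cdx2 and Foxa3 had 0 reads in 4 PSC libraries each and Foxa2 in 3, with highest values of 0.52, 0.256 and 0.434 CPM. Hnf4a and Foxa1 were detected in all 12, Hnf4a from 0.0365 to 1.52 CPM with a median of 0.231 and Foxa1 from 0.0883 to 1.34 CPM with a median of 0.589. Hnf4a was 1.40, 1.00 and 1.52 CPM in the 3 PSC libraries grown with T69A (WT, A3 and B4), above the 0.0365 to 0.657 CPM of the other 9. Foxa1 was 0.84, 1.23 and 1.34 CPM in the 3 PSC5 libraries (WT, C5 and D4), above the 0.0883 to 0.824 CPM of the 9 PSC4 libraries. Its edgeR difference between PSC5 and PSC4 cells grown with T6-LOH did not pass (log2 1.13 ± 0.74, adjusted p = 0.496).

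These traces were set beside those of epithelial markers, as percent of the level in the matched organoids. The median over 17 markers was 0.679 to 0.688% in T69A PSCs and 0.0608 to 0.271% in the others. Hnf4a stood at 0.482 to 0.572% in T69A PSCs and 0.0211 to 0.25% in the others, and was above the marker median in 1 of 11 compositions and above every marker in 0. Foxa1 stood at 0.0653 to 1.902%, above the marker median in 9 of 11 and above every marker in 2. The same counts were 7 and 3 for Foxa3, 7 and 2 for Foxa2, 5 and 0 for Cdx2, and 2 and 1 for Hnf4g. Foxa3, Foxa2, Cdx2 and Hnf4g had at most 12 reads in any PSC library. The share of these reads that came from organoid RNA was not tested.

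Gata6 in PSCs was 33.0, 31.5, 40.0 and 34.9 CPM in the WT libraries grown with T69A, T6-LOH, T12-LOH and, for PSC5, T6-LOH. In KO libraries it was 25.1, 23.9 and 28.8 CPM in PSC4 clone A3, 42.5, 43.1 and 30.2 CPM in clone B4, and 24.0 and 50.8 CPM in PSC5 clones C5 and D4. The KO values lay on both sides of the WT values. Gata6 was above the share of every epithelial marker in 11 of 11 compositions. In TPM it was the highest of the 8 in PSCs, at 22.7 ± 5.58 (SD, n = 12), followed by Gata4 at 11.5 ± 8.34 with an overlapping range.

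The Gata6 difference between fractions was of different size in each organoid line, a difference between lines that was not tested. Over all compositions it was -3.52 ± 0.97 (log2, adjusted p = 0.00501), and -1.78 (adjusted p = 0.0289) without the composition block. Within co-cultures with PSC4, a comparison added after the levels had been seen, it was -6.40 ± 0.49 (adjusted p = 1.09e-08) for T6-LOH, -1.21 ± 0.42 (adjusted p = 0.0218) for T12-LOH and -0.07 ± 0.42 (adjusted p = 0.902) for T69A. The fit behind these values took all 23 libraries, with PSC genotype as a term in each fraction and no composition block. The values are therefore differences at the WT genotype, unlike that over all compositions. Of all genes 61.1, 56.9 and 60.9% were called in these comparisons. The T12-LOH call was lost without the T12-LOH WT organoid or WT PSC library (adjusted p 0.00418 to 0.211 over 23 omissions).

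Gata4 levels in PSCs differed between these PSC lines, each a single isolate, and the differences between clones were not tested. In PSC4 it was 21.3, 18.7 and 17.4 CPM in WT, 18.6, 18.2 and 15.0 CPM in clone A3 and 48.8, 46.8 and 28.7 CPM in clone B4, each for T69A, T6-LOH and T12-LOH. In PSC5 it was 3.21 CPM in WT and 7.52 and 5.17 CPM in clones C5 and D4. Clone B4 lay above all other PSC libraries and PSC5 below all PSC4 libraries. Gata4 was higher in organoids by 2.19 ± 0.31 over all compositions, WT and KO (log2, adjusted p = 2.69e-05). Within co-cultures with PSC4 the difference, at the WT genotype only, was 1.27 ± 0.41 (adjusted p = 0.014) for T6-LOH, 2.93 ± 0.41 (adjusted p = 1.41e-05) for T12-LOH and 2.20 ± 0.43 (adjusted p = 0.00032) for T69A. In T6-LOH with PSC4, Gata4 in PSCs was 40.05, 33.08 and 94.41% of its organoid level (WT, A3 and B4). The T6-LOH call was lost without its WT PSC library (adjusted p = 0.0894).

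PSC5 against PSC4 cells, both grown with T6-LOH, gave -2.42 ± 0.45 for Gata4 (log2, adjusted p = 0.0497), the only one of 4 factors tested there that was called, where 0.745% of all genes were. This call was lost in each of the 12 omissions of 1 library (adjusted p 0.0607 to 0.178). KO against WT PSCs gave 0.66 ± 0.33 for Gata4 (adjusted p = 0.416) and -0.07 ± 0.23 for Gata6 (adjusted p = 0.905). Of the 8 factors, 4 passed the filter on low counts in this comparison and 0 were called by edgeR, with 0.0949% of all genes called. None of the 4 had an unadjusted p under 0.05, and DESeq2 called 0.

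**Figure D4:**
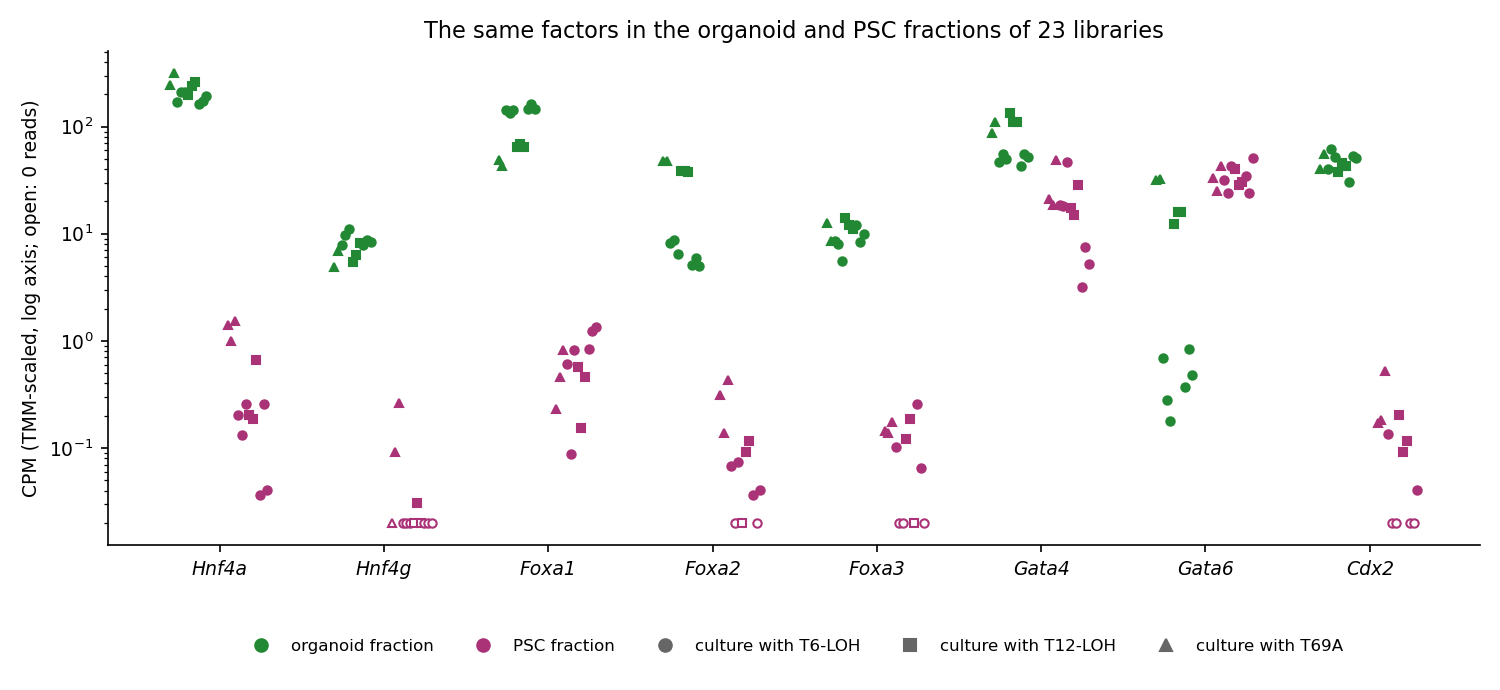
Level of the 8 factors (CPM, log axis) in the 11 organoid and 12 PSC libraries; each symbol is 1 library, its shape gives the organoid line of the culture, and open symbols at the lower edge had 0 reads. Hnf4a, Hnf4g, Foxa1 to Foxa3 and Cdx2 lie at 1.52 CPM or less in PSCs and at 4.85 CPM or more in organoids, Gata4 overlaps in its highest PSC libraries, and Gata6 in PSCs lies above its level in T6-LOH organoids.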

How the data were processed

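RNA-seq libraries of sorted organoid and PSC fractions were quantified by the authors with Salmon 1.9.0, with builds GRCm39 and mm39 named, per the submitters' processing notes. The deposited tables give estimated counts and TPM per transcript, and the strand setting was not given in the sources used here. For each gene, these counts were summed through GENCODE M21 names (115973 of 117135 transcripts matched, and 0.364 to 0.443% of counts unmatched) and rounded. Libraries held 21823084 to 34828131 estimated counts, so 3 reads are about 0.1 CPM. The test was edgeR's quasi-likelihood test (version 4.0.16, R 4.3.3, filterByExpr, TMM, robust), with Benjamini-Hochberg adjustment over all genes tested and a threshold of 0.05. Each SE was derived from the log2 difference and its F value. CPM values are TMM-scaled over all 23 libraries, and the deposited TPM was summed per gene for levels compared between genes. The script was tested on simulated data.

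The 8 genes and the gene lists were chosen with earlier results of these data known. Named were the 8 factors, up to 5 genes per list and comparison with the smallest p, the 3 genes most alike to each factor, and checks of labels. Alternatives were DESeq2 1.42.0, relative log expression factors, an effective length offset, no filter on low counts, other blocks, limma 3.58.1 with PSC line as a random effect, and leaving out each library or the T69A co-culture. The comparisons of fractions within 1 co-culture, PSC5 against PSC4 cells and the random effect in PSCs were added after the data had been seen.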

Additional observations from a re-analysis of the deposited data

Results flagged for a closer look

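In groups of 4 to 10 libraries, the gap of 1 library to the rest was large relative to the group's range in 4 of 31 groups tested. Chance gives this in about 1 in 20 independent groups, but these groups share libraries, so 4 of 31 cannot be set against that rate. All 4 were traces of an epithelial factor in PSCs grown with T69A. Hnf4a was 1.40 CPM in the WT PSC library grown with T69A. In the KO clone B4 PSC library grown with T69A, Hnf4g was 0.26 CPM, Foxa2 0.434 CPM and Cdx2 0.52 CPM. The epithelial marker median in T69A PSCs, 0.679 to 0.688% of the organoid level, was also the highest of the 3 lines, and its part in these values was not tested.

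For 2 factors, all KO organoid libraries of 1 co-culture lay below their WT library and all of another lay above. The Gata4 difference in T12-LOH with PSC4 minus that in T6-LOH with PSC5 was -0.605 (log2). The Gata6 difference in T6-LOH with PSC4 minus that in T6-LOH with PSC5 was -1.11 (log2), at levels under 1 CPM. These 2 differences between co-cultures were not tested.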

How the results depend on the processing

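Fractions over all compositions were paired by composition and genotypes by co-culture, as blocks in the fits. Such blocks were used since the library numbers in the titles are not shared between groups. The comparisons of fractions within 1 co-culture had no composition block and took all 23 libraries. Over all compositions, all 8 factors were still called between fractions without the composition block. Among settings other than leaving out 1 library, 395 fold changes of the 8 factors kept direction and side of the threshold, 10 lost the call, 4 gained it and 6 turned sign. Counts of genes called moved most. The genotype by line interaction called 3 genes, 24 with DESeq2, 0 with the length offset and 334 with no filter (2 of the 8 factors). KO against WT PSCs called 14, 586 with DESeq2, 23 with no filter, 0 with PSC line as a random effect and 0 without T69A. T6-LOH organoids with PSC5 against PSC4 called 74, 454 with DESeq2 (1 factor), 18 with the length offset and 242 with no filter (1 factor). KO against WT organoids called 1351, 801 with the length offset, 756 with no co-culture block and 418 without T69A. PSC5 against PSC4 cells called 110, 1016 with DESeq2, 48 with the length offset and 65 with no filter, and 0 factors with the length offset, no filter or relative log expression.

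Signs turned, all for differences that did not pass, for Hnf4a in the interaction with the length offset (-0.086) and in KO PSCs with the random effect (-0.048), Foxa1 without T69A in KO PSCs (-0.245) and KO organoids (0.028), Foxa2 in KO organoids with the length offset (0.001), and Cdx2 in T69A against T6-LOH with no filter (-0.026). The causes were not tested.

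Leaving out 1 library gave 2 to 6 genes for the interaction, 0 to 51 for KO PSCs, 8 to 251 for PSC5 against PSC4 organoids (0 to 1 factors), 203 to 1832 for KO organoids, 7 to 104 for PSC5 against PSC4 cells (0 to 0 factors), and 1 to 5 factors for T12-LOH against T69A. Ranges that crossed 0 were, for the interaction, Hnf4a -0.051 to 0.118, Hnf4g -0.231 to 0.163, Foxa2 -0.115 to 0.321 and Foxa3 -0.212 to 0.3. For KO PSCs they were Foxa1 -0.242 to 0.491 and Gata6 -0.201 to 0.074, and for KO organoids Foxa1 -0.046 to 0.027, Foxa2 -0.055 to 0.029 and Gata6 -0.114 to 0.27. The others were Gata6 between T69A fractions (-0.232 to 0.04), Gata4 in PSC5 against PSC4 organoids (-0.069 to 0.087), Cdx2 in T69A against T6-LOH (-0.053 to 0.072) and Gata6 in PSC5 against PSC4 cells (-0.209 to 0.428). The interaction could not be fitted without any 1 WT organoid library. Depth limits Hnf4g, Foxa2, Foxa3 and Cdx2 in PSCs.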

Other observations

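Other members of the GATA family and their cofactors had line patterns of their own. Gata5, a gut epithelial relative of Gata4, was 103 ± 10.0 CPM in T6-LOH (SD, n = 6), 55.4 ± 5.91 in T12-LOH (n = 3) and 106 ± 9.63 in T69A (n = 2). It was lower in T12-LOH than in T6-LOH (log2 -0.79 ± 0.08 SE, edgeR adjusted p = 3.02e-06), the comparison in which Gata4 and Gata6 were higher. In PSCs Gata5 was 0 to 0.729 CPM. Gata2 had the reverse distribution, at 31.1 to 101.9 CPM in PSCs and 0.128 to 1.38 CPM in organoids. Gata3 was 6.46 ± 0.86 CPM in T69A, 0.172 ± 0.0758 in T6-LOH and 0.0684 ± 0.0596 in T12-LOH, and T69A differed from T6-LOH by 5.58 ± 0.48 (adjusted p = 1.29e-06). Zfpm2, a cofactor that binds GATA proteins, was 7.50 ± 1.25 CPM in T12-LOH, 3.07 ± 0.31 in T6-LOH and 0.27 ± 0.26 in T69A. Its relative Zfpm1 was 189.8 ± 1.23 CPM in T69A against 98.7 ± 9.79 in T6-LOH. With KO PSCs, 0 of the 6 family genes and cofactors tested passed in edgeR.

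Ttc6 and Mipol1, chosen as genes near Foxa1, differed between lines in opposite directions. Ttc6 was 5.66 ± 0.91 CPM in T6-LOH, 3.72 ± 0.79 in T12-LOH and 2.95 ± 1.34 in T69A, means in the order seen for Foxa1. The T69A libraries ran from 2.01 to 3.90 CPM, and Ttc6 did not pass between T12-LOH and T69A (log2 0.45 ± 0.19, edgeR adjusted p = 0.0565). Mipol1 was 8.65 ± 1.38 CPM in T6-LOH, 18.8 ± 0.88 in T12-LOH and 10.6 ± 0.57 in T69A. With KO PSCs Ttc6 was lower in organoids by -0.53 ± 0.12 (log2, adjusted p = 0.0211), whereas Foxa1 gave -0.02 ± 0.05.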
